A study of Mus musculus with 39 samples.

Results

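The regions described here are 200 bp tiles of the mouse genome that were methylated in wild-type (WT) adult liver and unmethylated in WT mouse embryonic stem cells (mESC). A tile was taken when WT liver was at 50% or more and both WT mESC columns of total methylation were at 5% or less. This left 578 of the 377684 tiles in the table, or 0.29% of the 199643 tiles with WT values in liver and in both mESC sets. Of the 38853 tiles at 5% or less in both mESC sets, the liver-methylated tiles made up 1.49%. The tiles were chosen by these 3 WT levels, which are therefore given as a description and are not findings.

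The series has 39 libraries in 10 groups, made from p53-null or WT material by reduced representation bisulfite sequencing (RRBS) or its oxidative form (oxRRBS). RRBS covers fragments cut by MspI, which favours CpG-rich sequence. It does not separate 5-methylcytosine (5mC) from 5-hydroxymethylcytosine (5hmC), and their sum is called total methylation below. In oxRRBS the 5hmC is oxidised first, so that 5mC alone is read. The liver groups are 3 p53-null (p53-/-) and 3 WT RRBS libraries from male offspring of p53 heterozygous mice, taken at 16 weeks. The mESC were derived from E2.5 morulas of 129s-Trp53tm2Tyj/J p53+/- matings in 2i medium on feeder cells. They were either kept naive or, after feeder depletion, treated with 1 uM retinoic acid (RA) for 4 days. RA-treated cells gave 4 p53-null and 5 WT RRBS libraries, with 4 p53-null and 4 WT oxRRBS libraries. Naive cells gave 3 p53-null and 5 WT libraries with each assay. The labels do not say how many mESC lines a group holds, and p53 is lost in every cell of the p53-null animals and lines.

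Every level below is the authors' value for a whole group. Read depth is unknown and single libraries have no values in the tables used here, so no difference could be set against the variation among libraries. The headings of the tile table give the genotype but neither the tissue nor the cell state. Its mESC columns form a first and a second set, recognised by their separate 5mC columns, since oxRRBS was made from mESC only. The remaining columns headed WT and p53 hold total methylation alone, and the liver libraries are the ones whose labels name this table, so those columns were taken as liver. The number of liver libraries behind each column is not stated. Positions are on build mm9, counted from 1. No gene annotation or genome of that build was used, so tiles are given without gene names or sequence, and the liver label was not checked against liver genes.

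In mammals, DNA methylation is laid down at CpG sites by DNA methyltransferases and is kept through cell division by a maintenance enzyme that copies it to the new strand. CpG islands, the CpG-dense stretches at many promoters, usually stay unmethylated in every tissue, whereas most CpG-poor sequence is methylated in adult tissues. mESC held in 2i medium are known for very low methylation across the genome, and differentiation restores much of it. p53 is a transcription factor activated by DNA damage and other stress.

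The liver level was shared by p53-null liver, a column that the choice did not use. Of the 578 tiles, 535 had a value in p53-null liver, and they averaged 63.8% ± 21.8 there (SD over tiles). The lowest was 0%, the median 64.9% and the highest 100%. At least 50% was reached in 408 of the 535 tiles, or 76.3%, and under 10% was found in 10. By comparison, the 33664 tiles that were also unmethylated in WT mESC but at 5% or less in WT liver averaged 0.984% in p53-null liver. On each of the 20 chromosomes, the Y chromosome left aside, the mean of the liver-methylated tiles in p53-null liver lay between 52.8% and 74.2%.

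The mean over the same 535 tiles was 63.8% in p53-null and 69.0% in WT liver, a difference of -5.17 percentage points. This difference rests on the column that chose the tiles. When p53-null liver was used for the 50% limit in place of WT liver, 553 tiles were found, and these averaged 69.9% in p53-null and 62.1% in WT liver, a difference of 7.77 points. The sign thus followed the column used for the choice. In the 408 tiles at 50% or more in both columns the means were 73.1% in p53-null and 72.0% in WT liver. Of the 535 tiles, p53-null liver was lower by 10 points or more at 164 and higher by as much at 78.

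**Figure D1:**
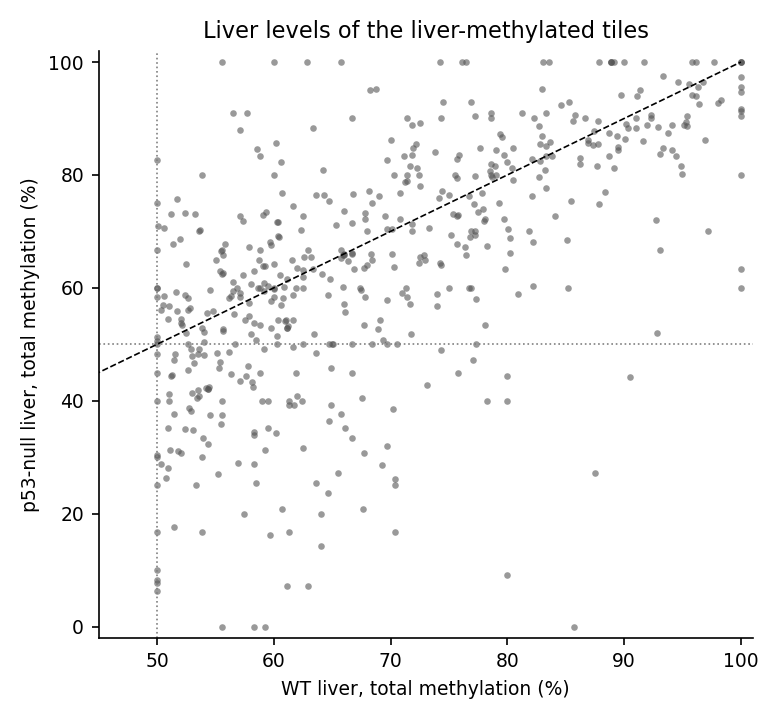
Each point is 1 of the 535 liver-methylated tiles with a value in p53-null liver, with its total methylation in WT liver on the x axis and in p53-null liver on the y axis, both in percent. The dashed line marks equal levels and the dotted lines mark 50%; 408 points lie at or above the horizontal dotted line, and the left side is empty because WT liver chose the tiles.

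Single tiles ran far from the mean in either direction. The lowest p53-null minus WT difference was at chr2:106760201-106760400, at 0% in p53-null and 85.7% in WT liver. The tile at chr8:73404201-73404400 stood at 9.09% in p53-null and 80% in WT liver. At chr18:37251801-37252000 p53-null liver was at 27.3% and WT liver at 87.5%. The highest difference was at chr4:140259601-140259800, with 100% in p53-null and 55.6% in WT liver. Next came chr5:147607001-147607200, at 100% in p53-null and 60% in WT liver. At chr11:79140801-79141000 p53-null liver was at 100% and WT liver at 62.9%. Without counts, the precision of such single values is unknown. Exactly 50% in WT liver was listed for 22 tiles, exactly 100% for 15 and, in p53-null liver, exactly 100% for 22.

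Near the limits the levels changed gradually. The 99 tiles just inside the liver limit, from 50% to under 55% in WT, averaged 47.0% in p53-null liver where it had a value, and the 109 tiles just outside it, from 45% to under 50%, averaged 41.9%. At the mESC limit, 169 liver-methylated tiles had a higher WT mESC value over 4%, and 193 tiles lay just outside, over 5% and up to 6%. Their means in p53-null liver were 66.2% inside and 69.95% outside that limit.

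Most liver-methylated tiles had no other such tile within 1000 bp. They formed 482 runs when tiles with starts at most 1000 bp apart were joined, of which 400 held a single tile, 72 held 2, 8 held 3 and 2 held 5. Another liver-methylated tile lay within 1000 bp of 178 tiles, or 30.8%. The 34290 tiles at 5% or less in liver had a tile of their own kind that close in 90.3% of cases, but they are far more numerous and the shares were not tested against each other. Against their own share of tiles, liver-methylated tiles did lie together. They made up 28.0% of the adjacent tiles measured in all 3 WT columns. Their share was 0.29% of all tiles with WT values in the 3 sets and 1.49% of those unmethylated in mESC. Neighbouring tiles share fragments, and no test was made. In windows of 1000000 bp, 375 of the 2090 windows with an mESC-unmethylated tile held at least 1 liver-methylated tile. Of these windows, 255 held exactly 1, and the highest count was 7, on chromosome 11 between 97000001 and 98000000.

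The longest runs show what such a region looked like. A run at chr15:100883401-100884600 held 5 liver-methylated tiles in 1200 bp, with 59.0% to 83.3% in p53-null and 66.0% to 77.5% in WT liver. In the second mESC set its tiles averaged 2.58% in p53-null and 1.75% in WT cells. The tile inside this run that did not qualify was at 84.4% in p53-null and 75.8% in WT liver, and was at 6.53% in p53-null and 7.75% in WT cells of the second set. Directly upstream the mESC level was still low, with 2.02% in p53-null and 0.543% in WT cells of the first set and no value in the second. The tile starting 600 bp before the run was at 98.5% in p53-null and 96.2% in WT liver, and at 18.3% in p53-null and 47.1% in WT cells of the second set. The tile starting 1600 bp after the start of the run was at 100% in p53-null and 90% in WT liver, and at 32.4% in p53-null and 66.7% in WT cells of the second set.

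The other run of 5 tiles, at chr11:3191401-3193000, spanned 1600 bp, and its 5 liver-methylated tiles were at 33.9% to 65.0% in p53-null and 54.5% to 68.0% in WT liver. A measured tile between them that did not qualify, starting 600 bp after the start of the run, was at 33.3% in p53-null and 21.4% in WT liver. On its upstream side the liver level tapered off. The tile directly before the run was at 29.7% in p53-null and 24.2% in WT liver, and the tile starting 1400 bp before it was at 0.593% in p53-null and 0.648% in WT liver. The tile starting 2800 bp after the start of the run was at 97.0% in p53-null and 96.2% in WT liver. These runs differ in their liver surroundings: one has tiles highly methylated in liver on both sides, and the other has tiles unmethylated in liver upstream.

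**Figure D2:**
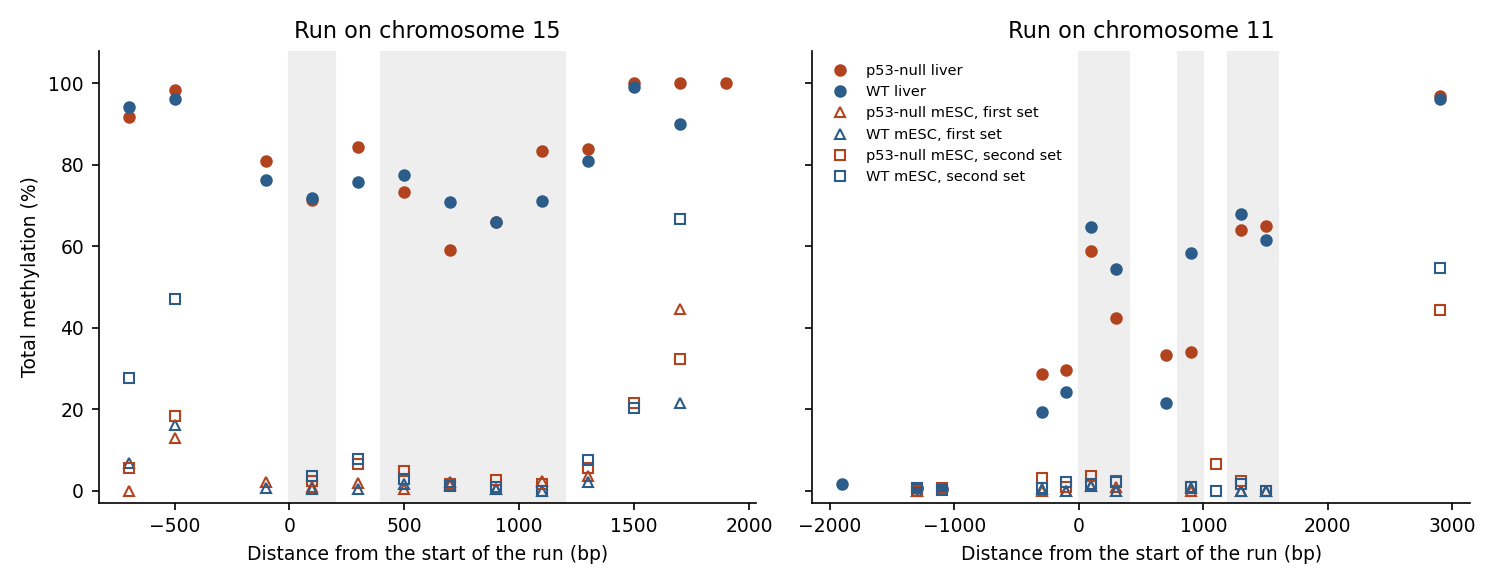
Total methylation in percent of every measured tile around the 2 longest runs, against the distance in bp from the start of the run. Filled circles are liver, triangles the first and squares the second mESC set, in red for p53-null and blue for WT; grey bands are the liver-methylated tiles, where liver lies at 33.9% or above and mESC lie near 0.

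Among the 8 runs of 3 tiles, the highest WT liver level was at chr12:109153801-109155200, with a mean of 78.1% in p53-null and 87.6% in WT liver. The run at chr3:15951801-15952400 averaged 82.5% in p53-null and 74.7% in WT liver, and was the highest of the 8 in p53-null cells of the second set, with 7.52% against 2.60% in WT cells. The runs at chr17:56139201-56139800, chr8:35024401-35025000 and chr11:53279801-53280400 averaged 72.4%, 70.1% and 65.8% in p53-null liver, against 69.2%, 65.3% and 62.2% in WT liver. At chr2:157385801-157386400, the run with the most measured CpGs of the 8, at 18, the means were 54.4% in p53-null and 58.3% in WT liver. The remaining runs, at chr5:110792001-110793000 and chr4:154719201-154719800, were lower in p53-null liver, at 42.2% and 40.2%, than in WT liver, at 58.5% and 53.6%. Of the runs of 2 tiles, those at chr6:56786801-56787200 and chr8:83382601-83383000 were at 100% in both tiles in WT liver and averaged 90% and 95.2% in p53-null liver.

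The neighbourhood of the liver-methylated tiles was examined next. Of 571 adjacent tiles measured in all 3 WT columns, 160 were themselves liver-methylated tiles (28.0%). Another 269 (47.1%) were at 50% or more in WT liver but above 5% in a WT mESC set, 116 (20.3%) were under 50% in liver and unmethylated in mESC, and 26 (4.55%) were neither. No adjacent tile was measured for 95 of the 578. The 404 adjacent tiles that did not qualify, each counted once, averaged 62.8% in p53-null and 62.1% in WT liver. In the first set they averaged 4.95% in p53-null and 3.68% in WT cells, and in the second set 9.79% in p53-null and 10.2% in WT cells. These means pool different kinds of tile. The 269 averaged 78.8% in p53-null and 78.6% in WT liver, with 13.1% in p53-null and 13.8% in WT cells of the second set. The 116 averaged 31.7% in p53-null and 30.2% in WT liver, with 2.23% in p53-null and 1.59% in WT cells of the second set. The liver means of the genotypes lay close together at these adjacent tiles, whose WT values are also shaped by the choice, since they are the ones that missed a limit.

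By 1000 bp the mean liver level was lower on both sides, over fewer and different tiles. Upstream, listed CpGs per tile averaged 2.8 at 200 bp and 4.70 at 1000 bp, so distance and CpG number changed together. Beyond that the level did not fall steadily. It was 35.7% in p53-null and 36.8% in WT liver at 1600 bp upstream, and 43.6% and 43.8% at 2000 bp upstream. At 600 bp upstream 71 tiles averaged 48.5% in p53-null and 49.9% in WT liver, and at 1000 bp upstream 53 tiles averaged 46.6% in p53-null and 45.6% in WT liver. The mESC levels increased with distance, to 12.9% in p53-null and 15.7% in WT cells of the second set at 1000 bp upstream. Around the tiles at 5% or less in liver, the tile 200 bp upstream averaged 1.72% in p53-null and 1.65% in WT liver, and that 1000 bp upstream 10.9% in p53-null and 10.8% in WT liver. At both kinds of tile the choice held WT mESC low, and at the tiles at 5% or less in liver it held WT liver low too. The low WT values at the tiles themselves are therefore no result. Tiles at the other distances include tiles of the same kind, chosen by the same limits. Of the tiles at 5% or less in liver, 82.0% had another such tile within 200 bp. The low levels beside them are thus partly set by the choice. In p53-null cells of the second set, liver-methylated tiles averaged 5.31%, against 8.12% at 200 bp upstream and 7.82% at 200 bp downstream. The liver-methylated tiles lay in a stretch of high methylation in p53-null liver. That stretch averaged 63.8% at the tiles themselves, 64.6% at 200 bp upstream and 63.0% at 400 bp downstream, and 52.7% at 600 bp downstream. These means include other liver-methylated tiles. Adjacent tiles that did not qualify, each counted once, averaged 62.8% in p53-null liver.

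**Figure D3:**
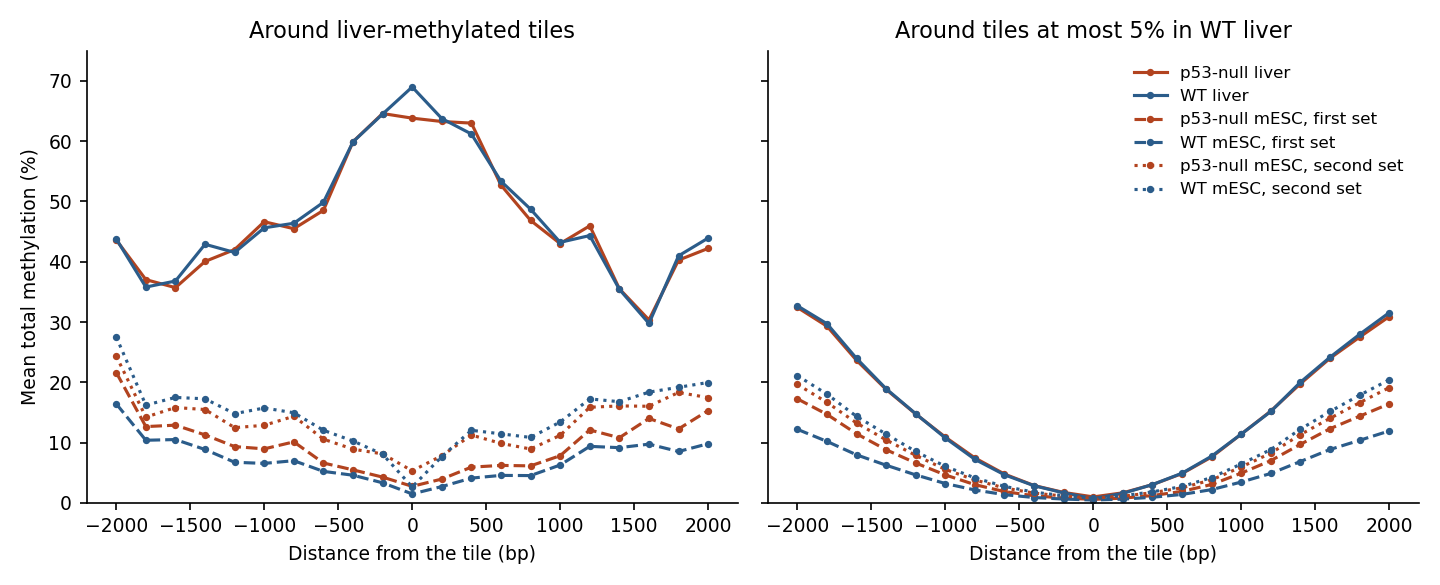
Mean total methylation in percent of tiles at each distance in bp from the liver-methylated tiles (left, 535 of them at distance 0) and from the tiles at 5% or less in WT liver (right), all of them at 5% or less in both WT mESC sets. Solid lines are liver, dashed lines the first and dotted lines the second mESC set, in red for p53-null and blue for WT; at distance 0 the WT values are fixed by the choice of tiles, and 200 bp upstream liver is near 64.5% on the left and near 1.7% on the right. Tiles at other distances include tiles of the same kind, chosen by the same limits.

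CpG density was measured as the number of CpGs per tile in the table of single CpGs, which lists 330387 CpGs with values in mESC. The liver-methylated tiles held fewer listed CpGs than the tiles at 5% or less in liver. At least 1 listed CpG fell in 342 of the 578 tiles, 855 CpGs in all, with a mean of 2.5 ± 2.15 CpGs per tile (SD over tiles), against 5.36 ± 3.96 in tiles at 5% or less in liver. The mean was lower in the liver-methylated tiles than in those at 5% or less on 20 of 20 chromosomes. The other classes lay nearer, with 2.89 CpGs at 20% to 50% in liver and 3.13 at 5% to 20%. Among all 199643 tiles with WT values in the 3 sets, 91339 held a listed CpG, 262315 CpGs in all. That share of tiles is smaller than among the liver-methylated tiles. No listed CpG was present in 40.8% of the liver-methylated tiles, against 8.10% of the tiles at 5% or less in liver, and 9 or more were present in 1.38% against 17.6%. Over all tiles with WT values in the 3 sets, 3.10% held 9 or more. The widest contrasts are therefore with tiles unmethylated in liver, not with tiles at large.

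Read the other way, the share of mESC-unmethylated tiles that were methylated in liver declined with CpG number. It was 5.95% of tiles with no listed CpG, 2.74% with 1, 1.25% with 2 to 3, 0.469% with 4 to 8 and 0.13% with 9 or more. The level in p53-null liver did not decline along with it, at 65.6% in liver-methylated tiles with no listed CpG, 61.3% with 2 to 3 and 65.3% in the 8 tiles with 9 or more. A tile of 9 or more listed CpGs lay within 2000 bp of 15.9% of the liver-methylated tiles, against 51.1% of the tiles at 5% or less in liver and 10.99% of all tiles with WT values in the 3 sets. Listing in the CpG table depends on coverage in mESC, so a tile without a listed CpG is not a tile without CpGs.

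**Figure D4:**
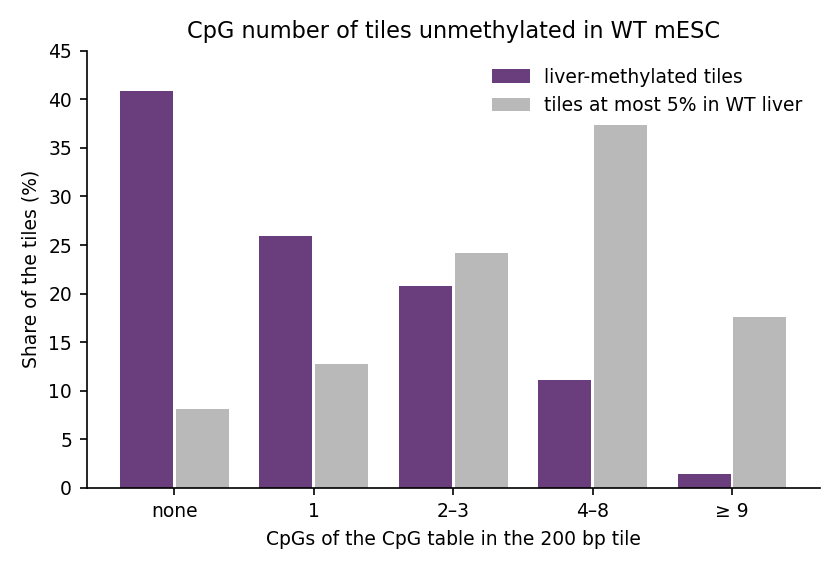
Share in percent of the 578 liver-methylated tiles (purple) and of the 34290 tiles at 5% or less in WT liver (grey) by the number of CpGs listed per 200 bp tile. Tiles with no or 1 listed CpG make up 40.8% and 26.0% of the liver-methylated tiles, against 8.10% and 12.8% of the others.

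Methylation in mESC was low but not equal across tiles, and it followed the liver level. WT 5mC was read from oxRRBS libraries, other libraries than those of total methylation by their titles, and was not itself used for the choice. In the first set WT 5mC averaged 1.53% ± 3.10 over the liver-methylated tiles (SD over tiles) and 0.418% ± 0.893 over the tiles at 5% or less in liver. In the second set it averaged 4.15% ± 5.03 and 0.704% ± 1.36. Between these classes lay the tiles at 5% to 20% in liver, with 2.35% in the second set, and those at 20% to 50%, with 2.99%. The liver-methylated tiles had the higher WT 5mC mean on 20 of 20 chromosomes in each set. Above 10% were 62 of the 578 tiles in WT 5mC of the second set, although their total level was at most 5% by choice. Mean WT total of these 578 tiles was 2.62% in that set, below their mean WT 5mC. As 5mC is part of the total, the choice bears on it too. Whether keeping tiles for a low WT total contributed to the differences between classes was not tested.

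The same order held in p53-null cells. Total methylation in p53-null cells averaged 2.81% over the liver-methylated tiles and 0.578% over the tiles at 5% or less in liver in the first set. In the second set the means were 5.41% and 0.793%. The classes also differ in WT level within the 5% limit, so tiles of similar WT level were compared. At exactly 0% in WT cells of the second set, 74 liver-methylated tiles averaged 5.83% in p53-null cells and 9641 tiles at 5% or less in liver averaged 0.559%. Over 0% and up to 1% in WT, 39 and 16781 such tiles averaged 2.10% and 0.470%, a smaller gap. Over 4% in WT, 135 and 672 such tiles averaged 6.87% and 3.54%. Without counts, the precision of a listed 0% is unknown. Matching on the WT total, the value used for the choice, cannot remove an effect of the choice. At equal CpG number the order was kept too: with 1 listed CpG, p53-null cells of the second set averaged 5.21% in liver-methylated tiles and 1.20% in tiles at 5% or less in liver, and with 4 to 8 CpGs 3.04% and 0.610%. No test over libraries could be made of these differences.

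**Figure D5:**
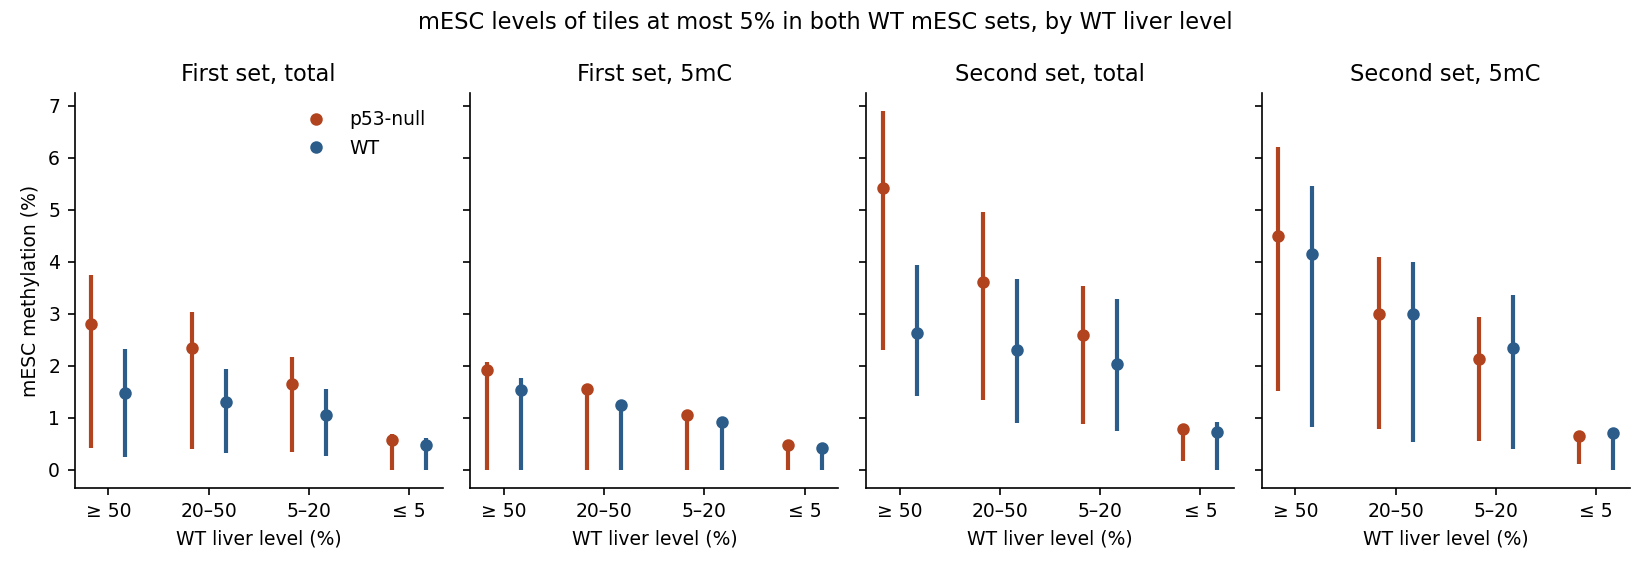
Methylation in percent in mESC of all tiles at 5% or less in both WT mESC sets, by their level in WT liver on the x axis, for total methylation and 5mC of each set. Points are means over tiles and bars run from the lower to the upper quartile, red for p53-null and blue for WT; means step down from the class at 50% or more to the class at 5% or less in every panel, and WT totals cannot exceed 5% by choice.

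The genotypes were then compared in mESC. Total methylation of the liver-methylated tiles was higher in p53-null cells, 2.81% against 1.48% in WT cells in the first set and 5.41% against 2.62% in the second, differences of 1.33 and 2.79 points. The WT totals had to be at 5% or less to qualify, so these differences are a description only. The 5mC columns were not used for the choice, but 5mC is part of the total that was limited in WT cells only. The 5mC differences are therefore a description too. In 5mC the means were 1.91% in p53-null and 1.53% in WT cells of the first set, 0.386 points apart. In the second set they were 4.49% in p53-null and 4.15% in WT cells, 0.336 points apart. Higher 5mC in p53-null cells of the second set was listed for 317 of the 578 tiles and lower for 235. In the first set it was higher for 246 and lower for 227.

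Total minus 5mC, the estimate of 5hmC, is bound by the choice in WT cells, since WT totals were at most 5% and 5mC was not limited. In WT cells of the second set it averaged -1.53 points over the liver-methylated tiles, a value that no true 5hmC level can take, and it was below 0 in 292 of the 578 tiles. In p53-null cells of that set it averaged 0.922 points. In the same set the tiles at 5% or less in liver averaged 0.145 points in p53-null and 0.0264 points in WT cells. No 5hmC level was read from these values.

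A tile was called different where the authors' deposited table gave a q-value under 0.05 and the levels lay 10 points or more apart. For total methylation in first-set cells, calls from the authors' deposited table numbered 14 of the 578 tiles higher in p53-null cells (2.42%) and 0 lower, where it called 28.1% of all tiles of that set higher and 0.786% lower. For the second set the same calls from the authors' deposited table were 12 tiles higher (2.08%) and 0 lower, with 0.481% of all tiles higher and 3.65% lower. A lower call was impossible, since WT cells were at 5% or less, so nothing is read from these shares. Among the 34290 tiles at 5% or less in liver, the authors' deposited table called 0.0467% higher in the first and 0.0233% in the second set. In 5mC the authors' deposited table called 21 tiles higher and 7 lower in p53-null cells of the first set, where 36.6% and 6.03% of all tiles were called, and 7 higher and 8 lower in the second, where 2.81% and 12.3% were. Of the 25 tiles called in total methylation in either set of the authors' deposited table, 1 was called in both, 7.14% of the first-set and 8.33% of the second-set calls. Nothing is read from this overlap, since the sets differ widely in their calls over all tiles.

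That tile, at chr6:49082601-49082800, was at 90.5% in p53-null and 100% in WT liver. In total methylation it was at 16.3% in p53-null and 3.75% in WT cells of the first set (q = 0.0337 in the authors' deposited table), and at 29.4% in p53-null and 2.5% in WT cells of the second (q = 0.0111 in the authors' deposited table). Its 5mC was lower in p53-null cells, at 0% against 7.83% in WT cells of the first set and at 6.82% against 27.4% in WT cells of the second. The highest p53-null level in the first set was at chr1:120287201-120287400, at 28.8% in p53-null and 3.49% in WT cells (q = 3.27e-05 in the authors' deposited table), with 15% in p53-null and 1.39% in WT cells in 5mC. Both of its listed CpGs together averaged 30% in naive p53-null and 5% in naive WT cells, and 7.5% in RA-treated p53-null and 0% in RA-treated WT cells. In liver this tile was at 83.3% in both genotypes.

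In the second set, high p53-null totals were also listed at chr5:123351201-123351400 and chr8:11437801-11438000, both at 28.6% in p53-null cells, against 0% and 3.45% in WT cells. Their 5mC in that set was 8.57% and 15.1% in p53-null cells, against 14.3% and 16.7% in WT cells. In the first set their 5mC was 28.9% and 10.5% in p53-null cells, against 0% at both tiles in WT cells, and the authors' deposited table called both higher in that measure. The tile on chromosome 8 was also called higher in first-set total methylation in the authors' deposited table, at 12.7% in p53-null and 0% in WT cells. At chr3:75270601-75270800 total and 5mC were alike, at 16.3% and 16.4% in p53-null cells of the second set against 1.75% and 1.89% in WT cells, and it was the tile called higher in both measures of that set in the authors' deposited table. The tiles called in total methylation lay on 13 chromosomes, 5 of them on chromosome 8. That chromosome held 56 liver-methylated tiles, the most of any, and nothing is read from this count.

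The table of single CpGs names the cell state, and it covers 342 of the liver-methylated tiles. Their mean total methylation was 4.59% in RA-treated and 2.33% in naive p53-null cells, and 3.26% in RA-treated and 1.49% in naive WT cells. RA-treated cells were the higher in 237 tiles and the lower in 70 in p53-null cells, and in 213 and 71 tiles in WT cells. In tiles at 5% or less in liver the RA-treated minus naive difference was 0.236 points in p53-null and 0.273 points in WT cells, against 2.26 and 1.77 points in the liver-methylated tiles. Mean methylation of these tiles was thus higher after RA in both genotypes. In WT cells the gap to liver is no result, since the tiles were chosen low in WT mESC and high in WT liver. The p53-null columns did not enter the choice, but the tiles were chosen by WT levels at the same positions. RA-treated p53-null cells averaged 4.59% over the listed CpGs of 342 tiles. In p53-null liver the mean of tile levels was 63.8% over 535 tiles. These means differ in tiles and in measure, so the gap is a description only. Of the 855 CpGs, 73 were above 10% in RA-treated p53-null cells and 43 in RA-treated WT cells, against 25 in naive p53-null and 1 in naive WT cells. The highest CpG in RA-treated p53-null cells, at chr17:45738674-45738675, was at 27%, against 6% in RA-treated WT cells. The highest CpG in RA-treated WT cells was at 33%, and 25% or more was reached by 1 CpG in RA-treated p53-null and 3 CpGs in RA-treated WT cells. WT values of this table may come from the libraries that set the 5% limit.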

How the data were processed

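The submitters' processing notes name Trim Galore, BSMAP and methylKit with build mm9. No source used here gives their roles, coverage filters or how libraries were pooled. Levels of 200 bp tiles were deposited by the authors as fractions, with WT minus p53-null differences and q-values per the file headers. Fractions were multiplied to percent, and a q-value of -1, listed where the difference is 0, was taken as no call. The CpG table holds whole percent values deposited by the authors per CpG. Not used were 6 columns, 2 with the ending D and 4 with the ending Hx, which no source defines. The estimate of 5hmC is total minus 5mC. The differences deposited by the authors, score values in unit terms, match the levels and were turned to p53-null minus WT for calls.

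The planned tests over libraries and the planned calls in liver were not made, since there are no values per library and no liver q-values. CpGs were assigned to tiles by position, counted from 1. The 12 runs with the most tiles are named. Lists of 5 tiles covered extreme p53-null minus WT differences in liver, highest p53-null levels in each set and nearness to each limit. Only some of these tiles are named, and none of those nearest the limits. Tiles called in both sets or both measures were named after their values were seen. The limits, classes and lists were chosen with earlier results of these data known. Counting of tiles, runs and calls was tested on simulated data and recovered what was planted. Scripts ran in Python 3.11.15 with pandas 2.3.3, numpy 2.4.6, matplotlib 3.10.9 and scipy 1.17.1. Alternatives were a 70% liver limit, WT mESC at 0, autosomes only, 1 tile per run, other distances, 2 other liver choices added after seeing the data, and a stricter call (q under 0.01 and 25 points).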

Additional observations from a re-analysis of the deposited data

How the results depend on the processing

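Of 45 recomputed values, 33 stayed within 1.5 times the reported one or, for the share of tiles with a neighbour, within its exact 95% binomial interval (27.1% to 34.7%), a counting interval only. The number of tiles was 253 with a liver limit of 70% and 34 with both WT mESC columns at 0, as stricter limits must give. The share with a neighbour was 24.1% and 5.88% under those limits and 26.3% within 200 bp. With both WT mESC columns at 0, mean WT 5mC of the first set was 0.738%, the CpG number 1.08, and the authors' deposited table called 2 tiles in the first and 1 in the second set. It called 7 in the first set with the 70% limit, and 1 and 0 by the stricter call. Mean p53-null liver ranged from 60.5% to 77.9%. No paired analysis was possible because single libraries have no columns of their own in either table. Calls in liver and fits without single replicates were not run, and depth is unknown.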

Other observations

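The X chromosome held 12 of the liver-methylated tiles, 2.10% of its 572 tiles unmethylated in WT mESC (95% Clopper-Pearson interval 1.09% to 3.64%, counting error only), against 1.48% on the autosomes. All 6 livers are labelled male. The 8 X-linked tiles with a value in p53-null liver ranged from 20.9% to 89.5%, with a median of 69.4%, and the 12 in WT liver from 51.0% to 94.1%, with a median of 66.9%. The share differed between autosomes, from 0.868% on chromosome 13 to 2.60% on chromosome 14, whose exact 95% intervals run from 0.463% to 1.48% and from 1.84% to 3.55%. Neighbouring tiles share fragments, so these intervals are too narrow. Chromosome 8 held the most tiles, 56 of 2583, or 2.17%.

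Some windows held many liver-methylated tiles for their number of unmethylated tiles. Between 58000001 and 59000000 on chromosome 6, 4 of 10 qualified, and between 19000001 and 20000000 on chromosome 12, 6 of 35 in 5 runs. In that window of chromosome 12 the tiles averaged 46.9% in p53-null and 65.6% in WT liver, and 1.46% in p53-null and 0.983% in WT cells of the second set. These windows were picked after their values were seen.

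Tiles at exactly 0% in both WT mESC columns also differed in 5mC by their liver level. The 34 of them at 50% or more in WT liver averaged 4.70% in WT 5mC of the second set, and the 4362 at 5% or less in WT liver averaged 0.475%. In the first set these means were 0.738% and 0.386%. As 5mC is part of the total, a 5mC level above 0% disagrees with a total of 0%. Read depth is unknown, so the precision of these totals is too, and nothing further is read from the means.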
